A study of Mus musculus with 26 samples.

Results

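Gene expression in mouse cortex after stroke was compared between mice kept on a high-fat diet for 15 weeks and mice kept on it for 6 weeks. All 12 libraries labelled as stroke on the high-fat diet were used, 6 at 15 weeks and 6 at 6 weeks, out of 26 libraries in the series. The diet gave 60% of its calories as fat, the mice were C57BL/6J, an inbred strain prone to obesity on fatty food, and the tissue was taken 3 days after the stroke. Both groups therefore had the same diet and the same operation and differed by label only in the weeks. Control-diet stroke libraries, from mice given 6% of calories as fat for 15 weeks (4 libraries) or 6 weeks (4 libraries), and 6 sham libraries of 6 weeks (3 on each diet) served as the background. The dissected cortex held the stroke core together with the tissue bordering it, so a library mixes dead, injured and surviving tissue in a proportion that the labels do not give.

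The labels give neither age, batch nor the animal behind each library. Sham mice of 15 weeks were not analysed here, so the weeks on the diet, the age of the mice and separate handling of the groups cannot be told apart in this comparison. A p-value here is set against the variation among libraries, part of which may be technical. In bulk tissue, fewer cells of a type and less RNA per cell cannot be told apart either. The 12 libraries held 12316491 to 16962682 counts in genes, and replicates are numbered in the order of deposit.

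Total RNA libraries, unlike libraries primed on the poly(A) tail, also hold unspliced transcripts and RNAs that have no tail, among them small nuclear and nucleolar RNAs and nuclear long noncoding RNAs. U11 and U12 are the small nuclear RNAs that recognise the 5′ splice site and the branch site of the rare introns removed by the minor spliceosome. Most subunits of the mitochondrial respiratory chain are encoded in the nucleus, while a small set is transcribed from the mitochondrial genome. Injured cortex after a stroke fills with phagocytes, dividing microglia and reactive astrocytes, and neurons in the core die. Neurons that survive express peptides, such as somatostatin and cholecystokinin, and activity-regulated genes.

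The U11 and U12 genes are printed here because both were among the small RNA genes that rose and neither overlapped between the groups. The letters come from the GENCODE M21 transcripts, with the run of T in capitals that matches the binding site of Sm proteins, AATTTTTTG in U11 and AATTTTTG in U12.
Rnu11 (U11, ENSMUSG00000077323, chromosome 4, 134 bases): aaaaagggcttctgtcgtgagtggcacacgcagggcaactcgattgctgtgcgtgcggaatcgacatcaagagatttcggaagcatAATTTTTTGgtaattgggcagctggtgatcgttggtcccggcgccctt
Rnu12 (U12, ENSMUSG00000065176, chromosome 15, 151 bases): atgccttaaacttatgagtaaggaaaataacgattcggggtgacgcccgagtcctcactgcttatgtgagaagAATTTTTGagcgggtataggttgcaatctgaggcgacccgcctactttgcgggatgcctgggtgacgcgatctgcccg
The capitals stand at bases 87 to 95 of U11 and at bases 74 to 81 of U12.

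At 15 weeks, 7 of 36 small nuclear RNA genes, the nuclear noncoding RNAs Neat1, Malat1 and Meg3, 4 of 20 hnRNP genes and 5 mitochondrially encoded genes were higher than at 6 weeks. Nuclear-encoded respiratory chain genes, among them 9 of 37 of complex I, were lower, as were the peptide genes Grp, Cort, Vip and Cck and the activity-regulated gene Homer1. Genes of the injury response itself, those of phagocytes, reactive astrocytes, dividing cells and interferon signalling, were called in neither direction. A gene was called at an adjusted p under 0.05 in edgeR's quasi-likelihood test with Benjamini-Hochberg adjustment. Of 16325 genes tested, 384 were called (2.35%), 120 of them higher (0.735%) and 264 lower (1.62%), and 2897 had an unadjusted p under 0.05 (17.7%). Most changes were small. The median log2 fold change, 15 over 6 weeks, was 0.386 over the genes that rose and -0.268 over those that fell, against 0.0072 over all genes. At least 2-fold changes were seen in 25 genes that rose and in 1 that fell.

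The 6 and 6 libraries did not overlap in CPM (counts scaled to a common library size with TMM factors) for 292 of the 16325 genes (1.79%). Among the called genes this held for 45 of 120 that rose and 136 of 264 that fell. Genes named below for the size of their change had to show no overlap, so for them it was a condition of choice. The count of calls depended on single libraries in both groups. It was 1308 without 15-week replicate 1, and 219, 145, 146 and 241 without 15-week replicates 2, 3, 4 and 6. Without 6-week replicates 1, 2, 4 and 5 it was 135, 182, 190 and 187. Of 74 called genes with statistics given by name here, 40 kept the call whichever of the 12 libraries was left out.

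Properties of the libraries moved with the groups. Counts in genes averaged 1.34e+07 ± 8.32e+05 at 15 weeks and 1.55e+07 ± 1.07e+06 at 6 weeks (SD, n = 6 each). The two-sided exact permutation p was 0.00433 (adjusted p = 0.0108 over 5 library measures). On the control diet the means were 1.40e+07 and 1.41e+07 (exact permutation p = 0.914). The part of this depth in the gene results was not tested. Fragments that fell outside annotated genes made up 22.8% to 32.1% of all counts in the 15-week files (median 27.6%, mean 27.4% ± 3.29, SD, n = 6) and 20.5% to 22.4% in the 6-week files (median 21.7%, mean 21.6% ± 0.820, SD, n = 6). The groups did not overlap, and the two-sided exact permutation p was 0.00216, the smallest that 6 against 6 libraries can give (adjusted p = 0.0108 over 5 library measures). On the control diet the share outside genes was 25.7% ± 2.25 at 15 weeks and 21.4% ± 1.66 at 6 weeks (SD, n = 4 each, exact permutation p = 0.0286, adjusted p = 0.143). Those groups did not overlap either, at 22.67% to 27.87% and 18.92% to 22.56%, and this p is the smallest that 4 against 4 libraries can give. The sham libraries, all of 6 weeks, stood at 23.2% to 27.6% on the high-fat diet and at 23.4% to 26.7% on the control diet, above every 6-week high-fat stroke library. With this share as a covariate, chosen after earlier results of these data were known, edgeR called 0 of the 16325 genes, with 785 at an unadjusted p under 0.05. Of the 384 called genes, 383 kept their sign in that fit, with medians of 0.25 and -0.191. The share and the weeks thus cannot be told apart for any of the gene results that follow. In 15-week replicate 5, the library with the lowest share of its group (22.8%), 87 of the 120 higher genes stood above all 6-week libraries, and 226 of the 264 lower genes stood below all of them. In replicates 2, 1, 6, 4 and 3, with shares of 24.7%, 27.4%, 27.8%, 29.2% and 32.1%, the higher genes numbered 110, 92, 114, 116 and 115 and the lower genes 240, 187, 249, 253 and 260. Replicate 1 had the fewest lower genes, at a share near the middle of its group. The genes had been called with these same libraries, so the counts are high by selection. They cannot tell the share from the weeks.

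**Figure D1:**
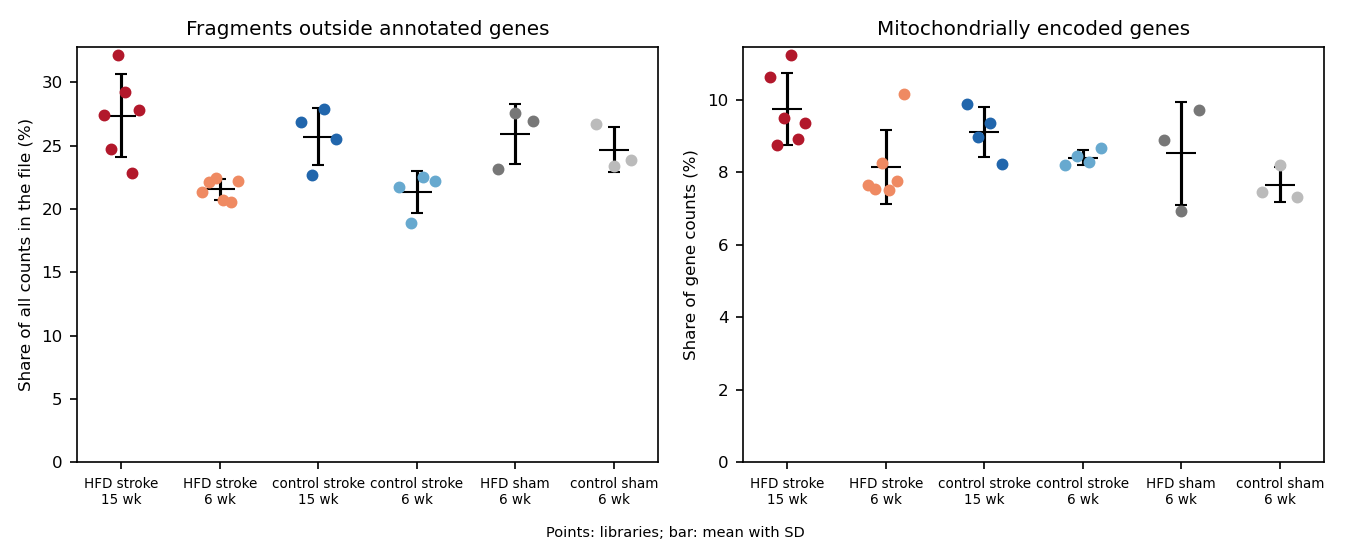
Share of all counts in a file that fell outside annotated genes (left, %) and share of gene counts in mitochondrially encoded genes (right, %), with a point per library and the mean with SD for each group. The 6 libraries of 15-week high-fat stroke lie at 22.8% to 32.1% outside genes, all above the 6-week libraries of that diet, while 6-week replicate 6 reaches 10.2% in the mitochondrial share.

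**Figure D2:**
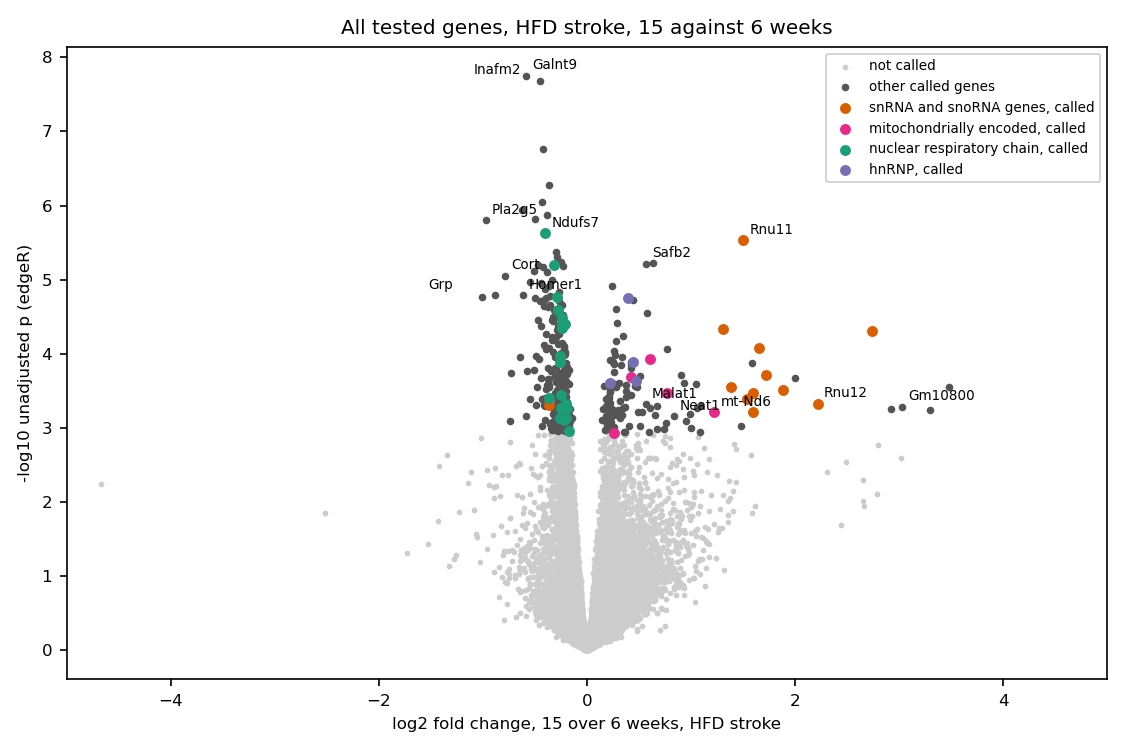
Log2 fold change, 15 over 6 weeks in high-fat stroke (horizontal), against -log10 of the unadjusted edgeR p (vertical) for the 16325 tested genes, with called genes of 4 classes in colour. Called snRNA and snoRNA genes lie at the right with large changes, with Scarna2 as the exception at -0.36, and called nuclear respiratory chain genes lie left of 0 with changes under 0.5.

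Several small noncoding RNA genes rose by more than 2-fold. Rnu11 stood at 4.14, 5.004, 6.997, 7.79, 8.63 and 10.03 CPM in the 15-week libraries and at 1.31, 2.12, 2.16, 2.71, 2.98 and 3.73 CPM in the 6-week libraries. Every 15-week library was thus above every 6-week library, and the log2 fold change was 1.51 ± 0.25 (SE, edgeR adjusted p = 0.0044). Rnu12 ranged between 28.3 and 80.8 CPM at 15 weeks (median 47.4) and between 1.31 and 22.3 CPM at 6 weeks (median 7.79), again without overlap, with a log2 fold change of 2.22 ± 0.54 (SE, edgeR adjusted p = 0.035). Snord118, which encodes the U8 RNA needed for processing of ribosomal RNA, rose by 1.65 ± 0.35 on the log2 scale. Its levels were 1.79 to 3.41 CPM at 15 weeks and 0.119 to 1.46 CPM at 6 weeks. Vaultrc5, the vault RNA that is part of the large vault particles of the cytoplasm, rose by 1.58 ± 0.35, at 3.62 to 7.32 CPM against 0.596 to 4.32 CPM. Snora34, a guide RNA for pseudouridine sites, rose by 1.31 ± 0.27. Its 15-week median was 2.48 CPM and its 6-week median 0.907 CPM.

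By type, 7 of 36 tested snRNA genes were called, all of them higher (19.4%, against 0.735% of all genes), with a median log2 fold change of 0.422 over the 36. Apart from Rnu11 and Rnu12 these were predicted copies, Gm23143, Gm22973, Gm22513, Gm25099 and Gm25541, which may share fragments with other copies, so that their counts are uncertain one by one. Of 117 tested snoRNA and scaRNA genes, 4 were higher and 1 was lower, Scarna2, a guide RNA of Cajal bodies, at -0.36. The median of the 117 was 0.374. Few of the annotated genes of either type passed the filter on low counts, 36 of 1382 and 117 of 1525, so these medians describe only the genes with reads. Mir433, a microRNA gene of the imprinted region that also holds Meg3, was higher by 1.22 ± 0.31 at 0.216 to 1.246 CPM at 15 weeks and 0.259 to 0.404 CPM at 6 weeks. Of the 15 called genes of small RNA types, 12 had no gene around them on the same strand. The hosts of the other 3 were not called, Eef1b2 at 0.03, Kansl2 at -0.05 and Sec24a at 0.36 (adjusted p = 0.863, 0.778 and 0.0515 by edgeR). The libraries that were low in these types stood within the 6-week group. In 6-week replicate 2 the mean of the snRNA genes was -0.34 log2 CPM, against 0.54 to 0.85 in the other 5 libraries of 6 weeks and 0.88 to 1.44 at 15 weeks. The calls of Rnu11, Snora34 and Snord118 held in every fit that left out 1 library. That of Rnu12 was lost in 7 of the 12 fits (highest adjusted p = 0.0776) and that of Vaultrc5 in 3 (0.0516).

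The long nuclear RNAs Neat1, Malat1 and Meg3 were higher. By gene type, 4 of 293 lincRNA genes were called higher (1.37%, against 0.735% of all genes) and 0 of 314 antisense genes were called. Neat1, the scaffold of nuclear paraspeckles, stood at 58.4, 110, 133, 147, 149 and 183 CPM at 15 weeks and at 64.5 to 89.9 CPM (median 68.1) at 6 weeks. The lowest of these 15-week values, in replicate 1, lay below the whole 6-week group, and the other 5 lay above it. The log2 fold change was 0.83 ± 0.21 (SE, edgeR adjusted p = 0.0385). Malat1, an abundant RNA of nuclear speckles, was at 4987 to 7800 CPM (median 6546) at 15 weeks and at 3416 to 5136 CPM (median 4367) at 6 weeks, a log2 fold change of 0.57 ± 0.14. Meg3, an imprinted RNA of neurons, was at 1010 to 1467 CPM at 15 weeks and at 739 to 994 CPM at 6 weeks without overlap, and rose by 0.52 ± 0.14. These 3 calls were the less stable ones, being lost in 10, 7 and 9 of the 12 fits without a library, with highest adjusted p values of 0.114, 0.0874 and 0.114.

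Families of RNA-binding and splicing proteins differed in their counts. Among 20 tested hnRNP genes, whose proteins coat nascent transcripts and steer splicing, 4 rose (20%, against 0.735% of all genes) and none fell. The family median was 0.163, and 17 of 20 were above 0. Hnrnpa2b1 was at 209 to 270 CPM (median 228) at 15 weeks and at 161 to 196 CPM (median 173) at 6 weeks, without overlap, a log2 fold change of 0.39 ± 0.07 (SE, edgeR adjusted p = 0.00748). Hnrnpd, which also binds AU-rich elements, was at 56.5 to 89.1 CPM against 47.8 to 56.2 CPM and rose by 0.44 ± 0.10. Hnrnpa1 rose by 0.47 ± 0.11 and Hnrnpm by 0.23 ± 0.05. Hnrnpa1 has many processed copies in the genome, so its count is less certain, and its call was lost in 3 of the 12 fits without a library, that of Hnrnpm in 7 (highest adjusted p = 0.0604 and 0.0785). Of 11 SR splicing factor genes 1 rose, Srsf5 by 0.19 ± 0.05, 6 were below 0 and the family median was -0.017. Among single genes, the splicing-associated gene Rbm25 rose by 0.29 ± 0.06, at 142 to 171 CPM against 118 to 138 CPM. Safb2, a nuclear scaffold protein that binds RNA, rose by 0.57 ± 0.10, at 28.0 to 42.5 CPM against 20.6 to 25.0 CPM. Tnrc6a, a partner of Argonaute proteins in microRNA silencing, rose by 0.28 ± 0.05. The families were picked after values had been seen.

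**Figure D3:**
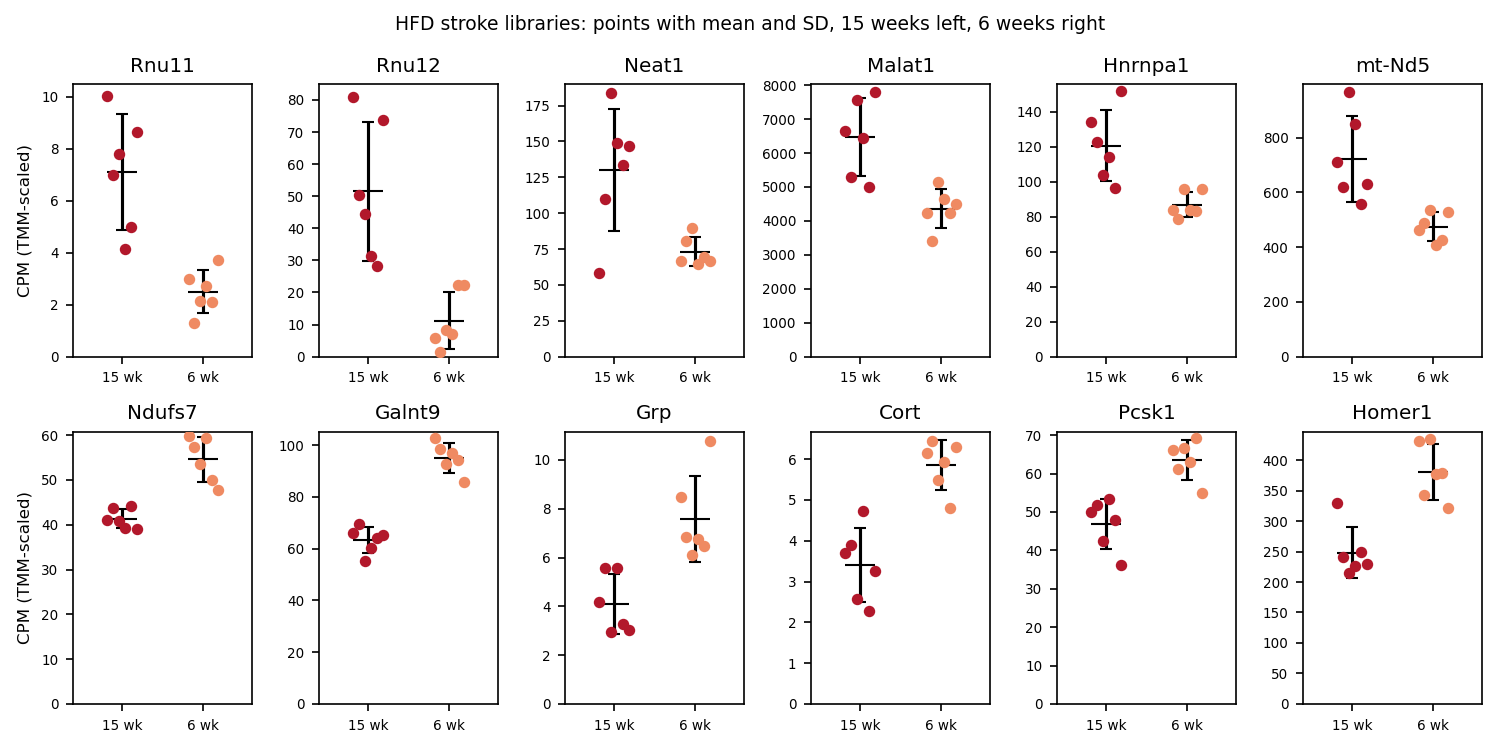
CPM by library for 12 genes in high-fat stroke, 15 weeks on the left and 6 weeks on the right of each panel, with the mean and SD and linear axes from 0. In Rnu11, Rnu12, Hnrnpa1, mt-Nd5, Ndufs7, Galnt9, Grp, Cort and Pcsk1 the groups do not overlap, whereas the lowest 15-week point of Neat1 (58.4 CPM) and the highest of Homer1 (329 CPM), both replicate 1, lie within or beyond the 6-week range.

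Other genes that rose came from several pathways. Jag1, a Notch ligand, was at 10.4 to 19.3 CPM (median 14.02) at 15 weeks and at 6.66 to 10.1 CPM (median 9.19) at 6 weeks and rose by 0.68 ± 0.17 (SE, edgeR adjusted p = 0.0358). Gfpt2, an enzyme at the entry of the hexosamine pathway, was at 6.84 to 10.1 CPM against 4.69 to 6.53 CPM and rose by 0.58 ± 0.11. Spaca6, a gene known from the fusion of sperm and egg, rose by 0.64 ± 0.11 at 27.5 to 39.7 CPM against 18.7 to 23.98 CPM. Arhgef1, an exchange factor for RhoA, rose by 0.45 ± 0.08. Smaller rises were those of Hmgb3 (0.42 ± 0.10), a chromatin protein, Cep250 (0.34 ± 0.07), a linker of centrosomes, the kinase gene Nek9 (0.28 ± 0.06) and the translation initiation gene Eif3a (0.25 ± 0.05). Leaving out single libraries ended the call of Jag1 in 8 of 12 fits (highest adjusted p = 0.104) and of Hmgb3 in 2 (0.0518), and it ended none of the others in this paragraph.

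Genes encoded in the mitochondrial genome took up 9.74% ± 0.992 of gene counts at 15 weeks and 8.15% ± 1.02 at 6 weeks (SD, n = 6 each, two-sided exact permutation p = 0.026, adjusted p = 0.0433). The 6-week value in replicate 6 was 10.2%, against 7.51% to 8.25% in the other 5, so the groups overlapped through that library. The difference was 1.41 and 1.29 percentage points without 15-week replicates 1 and 4, where the exact permutation p was 0.0519 and 0.0541. With all counts of the file as denominator it was 0.363 points (exact permutation p = 0.128). Of 12 tested members 5 rose (41.7%, against 0.735% of all genes) and none fell. The ribosomal RNA mt-Rnr1 rose by 0.77 ± 0.18, and the complex I subunits mt-Nd6, mt-Nd5 and mt-Nd2 rose by 1.23 ± 0.31, 0.60 ± 0.13 and 0.42 ± 0.10. The complex III subunit mt-Cytb rose by 0.26 ± 0.07 (edgeR adjusted p = 0.0491). mt-Nd5 was at 557 to 966 CPM (median 671) at 15 weeks and at 407 to 536 CPM (median 475) at 6 weeks, without overlap. The complex IV subunits mt-Co1, mt-Co2 and mt-Co3 had values of -0.02, -0.76 and -0.12 and were not called. mt-Nd6 lies on the strand opposite the other protein genes, and whether counting used the strand is not given in the sources used here. The calls of mt-Nd5, mt-Nd2, mt-Rnr1 and mt-Nd6 were lost in 2, 5, 6 and 7 of the 12 fits without a library, with highest adjusted p values of 0.0567, 0.0752, 0.0752 and 0.0815.

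Nuclear-encoded respiratory chain genes moved the other way, by small amounts. Of 37 tested complex I subunit genes of the Nduf family, 9 fell (24.3%, against 1.62% of all genes) and none rose. All 37 had a log2 fold change below 0, with a median of -0.145 against 0.0072 over all genes. Ndufs7, a core subunit that carries an iron-sulphur cluster, stood at 39.1 to 44.2 CPM (median 40.9) at 15 weeks and at 47.8 to 59.7 CPM (median 55.4) at 6 weeks. The groups did not overlap, and the log2 fold change was -0.40 ± 0.07 (SE, edgeR adjusted p = 0.00386). Ndufa2 fell by 0.32 ± 0.06, at 36.0 to 45.4 CPM against 47.5 to 52.8 CPM, and Ndufa11 by 0.27 ± 0.05, at 50.8 to 60.8 CPM against 65.7 to 71.4 CPM. Ndufv1, the subunit that takes up electrons from NADH, fell by 0.24 ± 0.05. The remaining 5 were Ndufa7, Ndufc2, Ndufb11, Ndufa9 and Ndufb5, at -0.26 to -0.20.

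The later steps of the chain gave like values. In complex III, 3 of 8 Uqcr genes fell, Uqcr11 by 0.29, Uqcr10 by 0.24 and the core protein gene Uqcrc1 by 0.17, and the cytochrome c1 gene Cyc1 fell by 0.22 ± 0.05. In complex IV, 2 of 15 fell, Cox8a by 0.26 and Cox7a2 by 0.22. Among ATP synthase genes, 5 of 17 fell, from Atp5e (-0.37) to Atp5o (-0.19), including the c-ring gene Atp5g1 at -0.26 ± 0.06. Mitochondrial ribosome genes fell in 7 of 76 cases with a median of -0.117. Proteasome genes fell in 4 of 38 cases with a median of -0.07. In none of these families did a gene rise, and over all tested genes 1.62% fell. The families were grouped by symbol after values had been seen. In the oxidative phosphorylation list, chosen with earlier results of these data known, 4 of 24 fell and 23 of 24 were below 0. Those that fell, Atp5g1, Cyc1, Uqcrc1 and Ndufv1, are all named above, so the list is not separate support. Without 15-week replicate 1, the complex I count was 16 of 37 and the list count 7 of 24, while 844 of 16329 tested genes were called lower. Without a library, the call of Cyc1 was lost in 4 fits, that of Atp5g1 in 2 and that of Uqcrc1 in 10 of 12 (highest adjusted p = 0.0599, 0.0595 and 0.112), and those of Ndufs7 and Ndufv1 in none. Atp6v0b, a subunit of the proton pump of acidic vesicles, fell by 0.30 ± 0.05, and Miga2, a mitochondrial fusion factor, by 0.28 ± 0.05.

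The genes with the smallest p overall were lower. Galnt9, an enzyme that starts O-linked glycosylation and is found mostly in brain, stood at 55.04 to 69.7 CPM (median 64.6) at 15 weeks and at 85.8 to 103 CPM (median 95.5) at 6 weeks. Its log2 fold change was -0.59 ± 0.07 (SE, edgeR adjusted p = 0.000169). Inafm2, a small membrane protein gene, had the same adjusted p, with 29.9 to 31.3 CPM against 38.4 to 49.9 CPM and a change of -0.45 ± 0.06. Neither gene overlapped between the groups. Pla2g5, a secreted phospholipase, fell by 0.97 ± 0.16, at 1.36 to 2.57 CPM against 3.23 to 4.39 CPM. Camk1g, a calcium and calmodulin-dependent kinase, fell by 0.62 ± 0.10, and Pip4k2c, a phosphoinositide kinase, by 0.37 ± 0.06. Hspbp1, a regulator of Hsp70, fell by 0.43 ± 0.07, Wdr34, a dynein chain of cilia, by 0.38 ± 0.06, and Abhd8, a hydrolase-like protein, by 0.50 ± 0.08. Drg2, a GTP-binding protein gene, fell by 0.25 ± 0.04. Lower by 0.45 to 0.55 were Fbxl15, Rprml, Lurap1l, Alkbh7, Rex1bd and Pgp, all named by a rule that required no overlap between the groups. The calls in this paragraph held in each fit that left out 1 library, with a highest adjusted p of 0.0497, for Rex1bd. Lmo1, a transcription cofactor, fell by 0.73 ± 0.17. Its 6-week replicate 6 was at 13.3 CPM, against 5.61 to 7.93 CPM in the other 5, and without 15-week replicate 3 its adjusted p was 0.0585.

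Some genes of neuropeptide signalling were among those that fell, picked here from the calls. Grp, which encodes gastrin-releasing peptide, stood at 2.96, 3.03, 3.29, 4.19, 5.55 and 5.56 CPM at 15 weeks and at 6.10, 6.48, 6.75, 6.86, 8.48 and 10.8 CPM at 6 weeks. No 15-week library reached the 6-week range, and the log2 fold change was -0.88 ± 0.17 (SE, edgeR adjusted p = 0.00748). Cort, the peptide cortistatin of cortical interneurons, was at 2.28 to 4.74 CPM (median 3.48) at 15 weeks and at 4.81 to 6.44 CPM (median 6.04) at 6 weeks, and fell by 0.78 ± 0.14. Vip was at 34.3 to 44.9 CPM against 44.3 to 52 CPM and fell by 0.33 ± 0.07, and Cck, at 189 to 244 CPM against 233 to 289 CPM, fell by 0.33 ± 0.08. Pcsk1, a protease that cuts prohormones into active peptides, was at 36.3 to 53.3 CPM (median 49.01) against 54.8 to 69.3 CPM (median 64.6) and fell by 0.44 ± 0.09 (adjusted p = 0.0107). Sstr2, a receptor for somatostatin and cortistatin, was at 10.6 to 16.4 CPM against 14.8 to 19.05 CPM and fell by 0.39 ± 0.09. Other peptide genes were not called, with Tac1 at 0.39, Penk at 0.49, Npy at -0.01 and Crh at -0.27 (adjusted p from 0.431 to 0.951). Of 15 inhibitory neuron markers, Vip and Cck fell (13.3%, against 1.62% of all genes), 10 were above 0 and the median was 0.022. Sst stood at 0.04 and Gad2 at 0.34, neither called. The calls of Grp, Cort, Vip and Pcsk1 held in every fit without a library, and those of Sstr2 and Cck were lost in 5 and 9 of the 12 (highest adjusted p = 0.0775 and 0.081).

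The promoters of Pcsk1 and Sstr2 are shown because both genes fell and both hold the cyclic AMP response element. The sequences are from RefSeq on GRCm38.p6, plus strand, and span the gene start, with the element TGACGTCA in capitals.
Pcsk1, chr13:75089607-75089906: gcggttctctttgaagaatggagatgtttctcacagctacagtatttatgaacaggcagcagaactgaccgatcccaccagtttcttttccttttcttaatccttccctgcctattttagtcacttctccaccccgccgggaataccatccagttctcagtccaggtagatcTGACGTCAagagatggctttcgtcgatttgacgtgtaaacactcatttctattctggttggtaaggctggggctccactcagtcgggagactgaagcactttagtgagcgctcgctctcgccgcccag
Sstr2, chr11:113619077-113619376: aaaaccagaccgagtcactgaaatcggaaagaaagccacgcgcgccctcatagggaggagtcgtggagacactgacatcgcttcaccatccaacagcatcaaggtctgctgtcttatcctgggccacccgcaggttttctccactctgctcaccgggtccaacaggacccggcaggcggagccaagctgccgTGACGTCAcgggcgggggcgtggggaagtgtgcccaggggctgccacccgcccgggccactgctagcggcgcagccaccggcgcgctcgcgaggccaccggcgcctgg
Searched on both strands, the element was in 11 of 218 promoters of genes that fell (5.05%), in 3 of 73 of genes that rose (4.11%) and in 408 of 11978 promoters of all tested genes with a RefSeq entry (3.41%). The palindromic core of the NRF1 motif was in 8 of the 218 (3.67%), in 0 of the 73 and in 2.1% of all. In the 18 promoters found for respiratory chain genes that fell, it was present in 2, Ndufa11 and Uqcrc1. A match is a run of letters and no evidence of binding.

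Genes induced by neuronal activity gave a mixed picture. Homer1, a scaffold of the postsynaptic density with a short activity-induced form, was at 215, 226, 230, 242, 249 and 329 CPM at 15 weeks and at 321 to 435 CPM (median 379) at 6 weeks. Only 15-week replicate 1 lay within the 6-week range, and the log2 fold change was -0.62 ± 0.12 (SE, edgeR adjusted p = 0.00748). The MAP kinase phosphatase genes Dusp4, Dusp7 and Dusp14 fell by 0.64 ± 0.14, 0.26 ± 0.07 and 0.39 ± 0.09. They were 13.6% of the 22 family members tested, against 1.62% of all genes, and the family median was -0.055. Srf and Etv5, transcription factors that act in growth factor and activity signalling, fell by 0.31 each, as did Nrn1, an activity-induced surface protein. Adra1d, an adrenergic receptor, fell by 0.51 ± 0.12. Of the 14 genes in the immediate early list, none was called and the median was -0.059. Egr4, Arc, Egr1 and Dusp6 had values of -0.40, -0.41, -0.31 and -0.31 with adjusted p from 0.159 to 0.434 by edgeR. In the fits without a library, Homer1 kept its call in all 12, Dusp4 lost it in 1, Adra1d in 3, Srf in 5, Dusp14 in 6, Dusp7 in 9, and Etv5 and Nrn1 in 10, with highest adjusted p values between 0.0524 and 0.122.

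A few markers of cortical cell types were called, and the medians of their lists were small. Of 19 excitatory neuron markers, only Neurod6, a transcription factor of cortical projection neurons, was called (5.26%, against 1.62% of all genes called lower). It stood at 52.2 to 63.4 CPM (median 58.6) at 15 weeks and at 72.1 to 94.1 CPM (median 74.4) at 6 weeks, a log2 fold change of -0.42 ± 0.07 (SE, edgeR adjusted p = 0.00553). The marker list as a whole had a median of -0.073. Among 14 homeostatic astrocyte markers, 2 fell (14.3%, against 1.62% of all genes). Aldoc, a glycolytic enzyme, fell by 0.33 ± 0.06 and Gjb6, a gap junction protein, by 0.25 ± 0.06. Aldoc was at 430 to 609 CPM at 15 weeks and at 616 to 719 CPM at 6 weeks. The astrocyte median was -0.012. Vtn, a pericyte gene, fell by 0.25 ± 0.07. It was the single call among 11 pericyte and smooth muscle markers (9.09%, against 1.62% of all genes lower), whose median was 0.182. Ptgds, a prostaglandin synthase of meninges and choroid plexus, was at 211 to 289 CPM against 300 to 500 CPM and fell by 0.59 ± 0.15. None of 10 meninges markers was called. Tmsb10, a cytoskeletal gene of immature neurons, rose by 0.37 ± 0.09. Without a library, Neurod6 and Aldoc kept the call in all 12 fits, whereas Gjb6, Vtn, Ptgds and Tmsb10 lost it in 9, 8, 8 and 9, with highest adjusted p values of 0.0924, 0.144, 0.0991 and 0.0994.

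The injury response was present in both groups. Spp1, a phagocyte gene of injured tissue, was at 28.9 to 1345 CPM (median 958) at 15 weeks and at 365 to 970 CPM (median 739) at 6 weeks. Its log2 fold change was 0.30 ± 0.57 (SE, edgeR adjusted p = 0.823). Gfap was at 185 to 1161 CPM (median 868) against 803 to 941 CPM (median 855), a change of -0.10 ± 0.29. No gene was called among 19 activated phagocyte, 12 homeostatic microglia, 15 monocyte and neutrophil, 20 reactive astrocyte, 20 cell cycle, 13 complement, 16 cytokine and chemokine, 22 interferon response and 20 extracellular matrix genes. Their medians were 0.238, 0.002, 0.496, 0.142, 0.313, 0.218, 0.409, -0.024 and 0.529. All 20 matrix genes and all 20 cell cycle genes were above 0. Among matrix genes the collagen gene Col6a1 came closest, at 37.3 to 57.9 CPM against 31.0 to 35.6 CPM without overlap and at 0.43 ± 0.12 (adjusted p = 0.0683).

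A single library spread the 15-week values of these lists. The mean log2 CPM of the phagocyte list was 3.27 in 15-week replicate 1, against 5.59 to 6.40 in the other 5 libraries of 15 weeks, 5.19 to 6.01 at 6 weeks and 2.27 to 2.35 in high-fat sham. For cell cycle genes it was 1.82 in that library, against 3.68 to 4.27 in the others, 3.23 to 3.91 at 6 weeks and 0.478 to 0.803 in sham. Without it, edgeR called 1308 genes, and 464 of the 16329 tested were higher. Those higher included 3 of 20 matrix genes (Sparc, Col5a1 and Col12a1), 1 of 19 phagocyte genes (Cd63) and 1 of 15 monocyte and neutrophil genes (S100a8). They also included 1 of 13 complement genes (Cfp) and 2 of 16 cytokine genes (Tgfb1 and Csf1). None was called among 20 reactive astrocyte, 20 cell cycle, 12 homeostatic microglia and 22 interferon response genes. The label of that library as stroke was kept for every result.

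Other lists held no call in either direction. Ribosomal protein genes (24), cholesterol synthesis genes (20), circadian clock genes (18) and chaperones (20) had medians of -0.062, -0.058, -0.04 and -0.025. Fatty acid oxidation and PPAR targets (22), glucocorticoid response genes (16), and genes of cholesterol efflux and lysosomal lipid (15) had medians of 0.085, 0.073 and 0.116. Replication-dependent histone genes (21) had a median of -0.221, antigen presentation genes (18) of 0.135, activated endothelium genes (15) of 0.311 and barrier endothelium genes (15) of 0.177. Blood (6), meninges (10), lymphocyte (3) and oligodendrocyte precursor (10) markers had medians of -0.284, -0.073, -0.049 and 0.083. The brain ageing list (19, median 0.184) and the list of genes that decline in development (20, median 0.251) held 1 call each, Neat1 and Tmsb10.

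**Figure D4:**
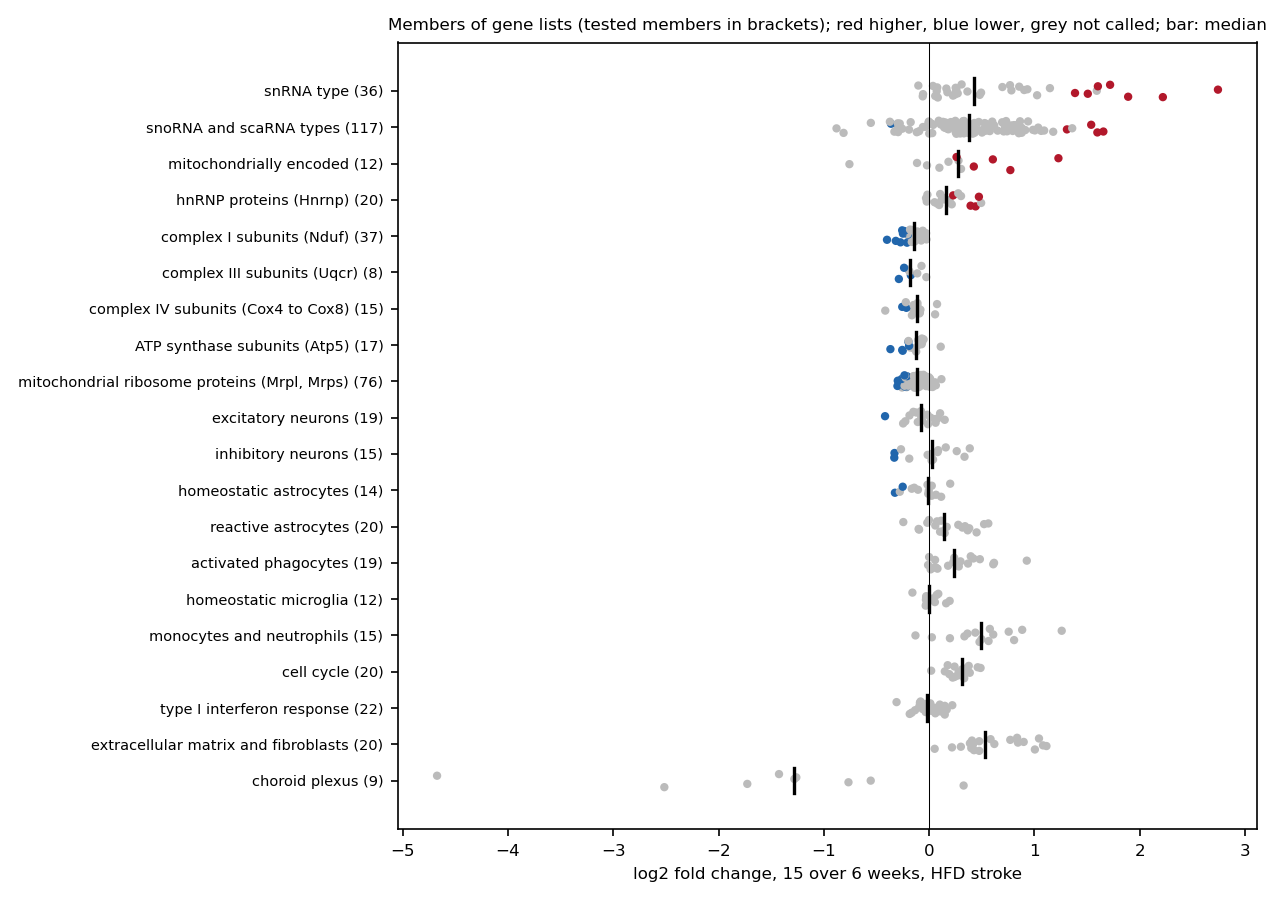
Log2 fold change, 15 over 6 weeks in high-fat stroke, of the tested members of 20 gene lists and families, with called members in red (higher) or blue (lower) and the median as a bar. All members of complexes I and III lie below 0, complex IV and ATP synthase have 2 members and 1 member above 0, snRNA genes lie mostly above 0, and the injury lists hold grey points only.

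Markers of neighbouring tissue pointed to single libraries. Choroid plexus genes had a median of -1.28 over 9 tested members with 0 called. Their mean was 3.81 log2 CPM in 6-week replicate 6, against -0.02 to 0.72 in the other 5 libraries of 6 weeks and -0.15 to 0.78 at 15 weeks. Ttr, the transthyretin gene that defines this tissue, was at 878 CPM in that library and at 2.14 to 47.2 CPM in the other 5, with 0.601 to 12.3 CPM at 15 weeks (log2 fold change -4.67 ± 1.52, SE, edgeR adjusted p = 0.107). Hippocampus genes were highest in 6-week replicate 6 (4.36 log2 CPM, others 2.602 to 3.05) and in 15-week replicate 6 (4.21, others 2.76 to 3.02). No striatum, hippocampus, ependyma or myelin marker was called. Without 6-week replicate 6, 335 genes were called.

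A group of 13 predicted genes that resemble Gm10800 in sequence, and may share fragments with one another, was chosen from earlier results of these data. Of 8 tested, 3 rose (37.5%, against 0.735% of all genes), Gm10718, Gm10800 and Gm21738. Their log2 fold changes were 3.48 ± 0.82, 3.03 ± 0.74 and 2.92 ± 0.72, and the list median was 2.857. Gm10800 was at 40.0, 94.7, 103, 127 and 130 CPM in 5 of the 15-week libraries and at 3.12 CPM in replicate 1, against 2.14 to 16.6 CPM at 6 weeks. The list mean of high-fat sham was -2.19 to -1.63 log2 CPM, and that of 15-week replicate 1 was -1.66, so both this list and the injury lists were low in that library. The 3 calls were lost in 6, 8 and 7 of the 12 fits without a library (highest adjusted p = 0.065, 0.0804 and 0.0817). Without 15-week replicate 1, 7 of 8 were called. The rise was also seen on the control diet, where 6 of 8 were called higher (against 0.239% of all genes) with a list median of 4.439. Gm10718, Gm10800 and Gm21738 were called higher on both diets.

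The genes that rose and those that fell differed in build. Protein-coding genes made up 92 of the 120 that rose (76.7%) and 261 of the 264 that fell (98.9%), against 14591 of all 16325 tested (89.4%). In the GENCODE M21 annotation, the protein-coding genes that rose had a median longest transcript of 4632.5 bases, a median span of 42.4 kb, 14.5 exons and 46.8% GC. Those that fell had medians of 2333 bases, 9.87 kb, 5 exons and 54.9% GC. All tested protein-coding genes lay between, at 3460 bases, 25.4 kb, 8 exons and 49.8% GC. The part of length and GC content in the result was not tested.

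The same weeks were compared on the control diet, which shares no library with the comparison above. There 92 genes were called (0.564%), 39 higher (0.239%) and 53 lower (0.325%). The balance turned to 31 higher and 13 lower with RLE size factors, 41 and 20 with a minimum count of 50, and 30 and 16 without mitochondrial, ribosomal RNA and haemoglobin genes. Of the 384 genes called on the high-fat diet, 110 of the 120 that rose and 247 of the 264 that fell had the same sign on the control diet, 93% in all, against 69.4% of all tested genes. The median control-diet change was 0.27 for the genes that rose and -0.16 for those that fell. These genes were called on their high-fat values, so smaller control-diet values are expected by selection. Medians over whole families went both ways. They were -0.182 on the control and -0.145 on the high-fat diet for complex I, and 0.464 and 0.422 for snRNA genes. For hnRNP genes they were 0.148 and 0.163, and for mitochondrially encoded genes 0.101 and 0.269. Both comparisons called 35 genes, 14 higher and 21 lower in each, which is 9.11% of the high-fat calls and 38% of the control-diet calls. They included Meg3, Safb2, Srsf5, Spaca6, Arhgef1, Tnrc6a, Cep250 and Vaultrc5 among those higher, and Ndufa2, Ndufb11, Uqcr10, Cox7a2, Atp5o, Atp5j2, Mrps24, Mrps14 and Atp6v0b among those lower. The control-diet count was 0 without 15-week replicate 1 or without 6-week replicates 2, 3 or 4 of that diet (2027, 2671, 2237 and 1867 genes at an unadjusted p under 0.05), so those calls are the less firm ones.

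The difference between the diets was tested as diet by weeks. It called 0 of 16325 genes with edgeR (792 at an unadjusted p under 0.05, 4.85%, smallest adjusted p = 0.946), and 0 by DESeq2 (793 unadjusted) and by voom (1085 unadjusted). No gene was thus shown to change differently on the high-fat diet, and a miss of the threshold does not show that the diets act alike. The 5 genes with the smallest p were Adra1d, Ap1s2, Fezf2, Ier5l and Cep70. Adra1d changed by -0.51 on the high-fat diet and by 0.32 on the control diet, and Ap1s2, a subunit of a vesicle adaptor, by 0.16 and -0.47. Fezf2, a factor of deep-layer projection neurons, had values of -0.25 and 0.34, Ier5l of -0.19 and 0.69 and Cep70 of 0.24 and -0.21. The peptide genes that fell on the high-fat diet had small values on the control diet, Grp at -0.13, Cort at -0.21, Vip at -0.13 and Cck at -0.04. The unadjusted edgeR p of the difference was 0.0077 (Grp) to 0.077 (Vip). These genes were picked for their fall in the high-fat libraries, which the test uses again. Such p values are therefore biased towards small ones, and 75 of the 384 high-fat calls had one under 0.05. Rnu11 and Rnu12 had 1.05 and 2.46 on the control diet.

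**Figure D5:**
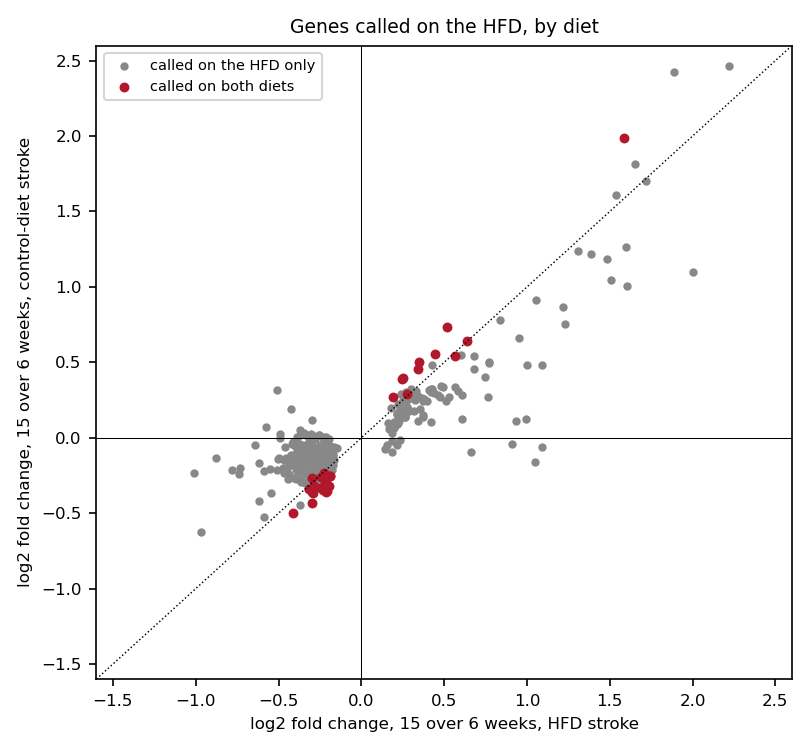
Log2 fold change, 15 over 6 weeks, on the high-fat diet (horizontal) and the control diet (vertical) for the genes called on the high-fat diet, of which 5 lie beyond the axes. Red points, called on both diets, all lie in the lower left or upper right, and most grey points lie nearer to 0 on the control diet than the dotted line of equal change. The genes were chosen by their high-fat values, so a smaller control-diet change is expected by selection.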

How the data were processed

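Total RNA was extracted with Trizol and sequenced as stranded paired-end libraries, per the labels' protocols. The submitters' processing notes name Trim Galore, STAR, featureCounts, HTSeq and build mm9, with no role or version. The authors deposited a table for each library with raw counts by Ensembl identifier, whole numbers that differ in total between libraries. Summary entries (45.69% to 58.16% of a file) entered neither library sizes nor tests. Of 39179 gene entries, 37607 got a name from GENCODE M21. The library totals were 11400882 to 16962682 gene counts over the 26 libraries.

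Genes passed filterByExpr (minimum count 10) in edgeR 4.0.16, were scaled by TMM and fitted with 1 mean per group over all 26 libraries by the robust quasi-likelihood method (R 4.3.3), which was checked on simulated counts. The biological coefficient of variation was 0.136. The SE is the log2 fold change divided by the square root of F. List means average log2 CPM over members (prior count 2). Library measures were compared by two-sided exact permutation tests. Within groups, the chi-square per degree of freedom between libraries was 3.52 or more, so none was counted as a repeat of another.

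The members, the 40 lists (619 of 665 genes tested) and the rule for named genes were chosen with earlier results of these data known. The rule took up to 12 called genes per direction by size (no overlap, a proper name, and in the higher group a mean CPM no lower than 5), up to 12 by p, up to 4 per described list and 5 from the diet by weeks test. Families by symbol or gene type, promoter motifs and Neat1, Malat1, Meg3, Homer1, Dusp4, Dusp7, Dusp14, Nrn1, Srf, Etv5, Spp1, Gfap, Ptgds, Hnrnpm, Srsf5, Sstr2, Pcsk1, Mir433, Tgfb1, Csf1, Col5a1, Cfp, Sst, Gad2, Tac1, Penk, Npy, Crh and the further respiratory chain genes were named after their values were seen. Alternatives were RLE size factors, DESeq2 1.42.0, voom with quality weights (limma 3.58.1), other filters, a non-robust fit, a fit on the compared groups alone, covariates and leaving out libraries. Coordinates other than those of RefSeq promoters are not printed, because the build of the files differs from that of the annotation.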

Additional observations from a re-analysis of the deposited data

Results flagged for a closer look

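Of 354 sets of 6 libraries looked at, each a gene, a list mean or a library measure in 1 group, 48 held a value farther from the rest than Dixon's 95% critical value. Chance gives about 1 in 20 such sets, and the sets share libraries and genes. No explanation was tested for any of them.

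In 15-week replicate 1, list means (log2 CPM) stood low for activated phagocytes (3.266, others 5.594 to 6.4), homeostatic microglia (4.932, others 5.796 to 6.109), monocytes and neutrophils (0.491, others 2.764 to 3.643), antigen presentation (2, others 3.646 to 4.314) and complement (2.853, others 4.569 to 4.982). They stood low there too for cytokines and chemokines (-0.5377, others 1.417 to 2.117), the interferon response (2.282, others 3.86 to 4.519), reactive astrocytes (2.551, others 4.183 to 4.954), the cell cycle (1.816, others 3.68 to 4.271) and replication-dependent histones (2.669, others 3.645 to 4.013). The same library was low for extracellular matrix (3.639, others 5.049 to 5.891), activated endothelium (1.779, others 2.79 to 3.261), brain ageing genes (4.05, others 5.653 to 6.178), PPAR targets (3.354, others 4.01 to 4.302), chaperones (5.877, others 6.178 to 6.355) and Gm10800-like genes (-1.661, others 1.286 to 2.373). It was high for inhibitory neurons (5.394, others 4.903 to 5.04). Among genes (CPM) it was low in Itgax (0.6578, others 5.293 to 7.221), Arc (106.5, others 167.4 to 195.9) and Cep250 (31.99, others 41.04 to 45.11), and high in Homer1 (329.2, others 215.1 to 248.7), Ap1s2 (58.55, others 38.67 to 43.77) and Prlr (2.714, others 0.4434 to 1.226).

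In 6-week replicate 6, choroid plexus genes stood high, as a list (3.81 log2 CPM, others -0.0248 to 0.7179) and in CPM for Ttr (877.6, others 2.135 to 47.22), Folr1 (9.737, others 0.1232 to 0.8071), Kcnj13 (10.32, others 0.6776 to 1.988) and Prlr (16.98, others 0.5365 to 0.9856). The library was also high for the hippocampus list (4.361 log2 CPM, others 2.602 to 3.046), the mitochondrially encoded share (10.16%, others 7.507% to 8.251%), mt-Rnr1 (11003 CPM, others 6002 to 7544), Lmo1 (13.25 CPM, others 5.606 to 7.928) and Neurod6 (94.07 CPM, others 72.14 to 79.91). It was low for Tmsb10 (34.26 CPM, others 45.85 to 50.08).

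The remaining 6-week values were those of replicate 2, low for small noncoding RNAs (4.607 log2 CPM, others 5.574 to 5.987), snRNA genes (-0.3419, others 0.5374 to 0.8468) and snoRNA and scaRNA genes (0.3663, others 0.9994 to 1.269) and high for S100a9 (1.311 CPM, others 0.4529 to 0.7392). Replicate 1 was low for Jag1 (6.664 CPM, others 8.85 to 10.13) and Fbn1 (11.71 CPM, others 16.77 to 19.37), replicate 3 was high for Cd9 (37.15 CPM, others 24.59 to 27.83), and replicate 5 was high for Pgp (38.54 CPM, others 28.64 to 31.59) and Drg2 (52.71 CPM, others 45.83 to 48.37). At 15 weeks, replicate 5 was high for Hspbp1 (39.97 CPM, others 34.59 to 36.35) and Ndufv1 (148.4 CPM, others 134.3 to 138.7). Replicate 6 was high for Eif3a (244.7 CPM, others 214.2 to 224.2), Snord118 (3.406 CPM, others 1.79 to 2.38) and the hippocampus list (4.213 log2 CPM, others 2.763 to 3.022).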

How the results depend on the processing

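The 74 named calls kept their sign in every alternative in which they were tested, and the cause of the changes below was not tested. Of the 384 called genes, 1 changed sign with the share outside genes as covariate. List medians that changed sign included striatum (-0.247 with voom, against 0.251), inhibitory neurons (-0.067 with voom, against 0.022), hippocampus (-0.318 with that covariate, against 0.066) and interferon genes (0.174 without 15-week replicate 1, against -0.024). The 384 high-fat calls became 716 with DESeq2, 160 with no filter, 127 with only the groups compared, 1812 with voom, 777 with the excitatory neuron mean as covariate and 0 with the share outside genes as covariate. They were 347 with RLE size factors (130 higher, 217 lower) and 351 with a minimum count of 50 (163 higher, 188 lower), against 120 higher and 264 lower. Leaving out 1 library gave 135 to 1308. The 92 control-diet calls became 44 with RLE (31 higher, 13 lower), 286 with DESeq2, 0 with no filter (2932 genes at an unadjusted p under 0.05), 61 with a minimum count of 50, 0 with only the groups compared (2576), 301 with voom, 46 without mitochondrial, ribosomal RNA and haemoglobin genes, 0 with the share outside genes as covariate (1403) and 818 with the excitatory mean as covariate. Leaving out 1 library gave 0 to 133. Without high-fat 15-week replicate 1 and control-diet 15-week replicate 3 together, the calls were 1715 and 514. Chosen after seeing the data, leaving out high-fat 15-week replicates 3 and 4 left 29 calls, and leaving out replicates 1, 3, 4 and 6 left 0 (1377 at an unadjusted p under 0.05). The diet by weeks count was 0 in every alternative run. The share outside genes differed by 4.84 to 6.7 percentage points when 1 library was left out, and the mitochondrial share by 1.292 to 1.996 points. With all counts of the file as denominator, the mitochondrial difference was 0.363 points (exact permutation p = 0.128). Of 74 named calls, 70 held with DESeq2, 71 with RLE, 54 with no filter, 43 with only the groups compared and 0 with the share outside genes as covariate. No paired analysis was possible because the labels give no replicate numbers shared across groups.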
